A study of Mus musculus with 96 samples.

Results

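ESRRB binding was followed from day 1 to day 4 of GATA6 expression in mouse embryonic stem (ES) cells by ChIP-seq, a method that sequences the genomic fragments an antibody pulls down together with its crosslinked target protein. The cells were of the KH2 line (C57BL/6 x 129/Sv) and carried a doxycycline (Dox)-inducible cassette that expresses the open reading frame of Gata6, with Dox given at 1 µg/mL and the culture kept in LIF and serum on feeder cells. The comparison rests on the libraries made with the ESRRB antibody after 24, 48 and 96 h of Dox, called here day 1, day 2 and day 4, which are 6 of the 96 libraries of the series, with 2 per day. All groups compared carried the cassette and had received Dox, so none of them is an untreated control, and the labels do not say which clone of the line gave which library. Values were given for all 42403 regions bound by GATA6 at some time, and each of them was used. OCT4 and SOX2, the other pluripotency transcription factors (PTFs) profiled, and input chromatin sequenced without antibody were read on the same regions at the same times.

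ESRRB is an orphan nuclear receptor that binds DNA as a monomer, at a nuclear receptor half-site preceded by a short extension. In ES cells it belongs to the network of naive pluripotency together with OCT4, SOX2, NANOG, KLF factors and TFCP2L1. GATA6 is the master regulator of primitive endoderm (PrE), the extra-embryonic lineage that forms next to the pluripotent epiblast of the blastocyst, and its forced expression converts ES cells towards PrE.

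The half-site that ESRRB recognizes is visible in most of the best motif matches shown here, from regions on which the comparison turns. Those of Pdgfra and Sox17 hold an altered form of it. Each match is shown on its own strand with 9 flanking bases on either side, the 11 bases of the match in capitals and the flanks in lower case, read from the mm10 genome. The first 6 of these regions lost most of their ESRRB signal, those of Klf4 and Sox17 were not called changed, and both classes are shown so that their sites can be compared.
Capn2, chr1:182500976-182500986, plus strand, high score: tcatggaagTCAAGGTCAATatggaggtc
Mycn, chr12:12943277-12943287, plus strand, high score: cctagagagTCAAGGTCAAAatgtgtatt
Jam2, chr16:84769483-84769493, plus strand, high score: tgggaggaaGCAAGGTCATCtcatgtact
Pou5f1, chr17:35488305-35488315, minus strand, high score: ggttcaaggTGAAGGTCACGggctcagct
Col4a2, chr8:11309502-11309512, plus strand, high score: ggagagattTCAAGGTCACTgtggaatgc
Pdgfra, chr5:75138088-75138098, minus strand, low score: gcggtcattTCAAAGTCACTttcctgcta
Klf4, chr4:55533396-55533406, plus strand, mid score: gcggcgaggTAAAGGTCATAggacaactc
Sox17, chr1:4536907-4536917, minus strand, mid score: agatatgttTCAGGGTCAAGgtgctatct
Among the 3677 regions whose best match has a high score, positions 3 to 6 of the match held A, A, G and G in 100% of sites, and the T, C and A that follow were found in 96.0%, 99.6% and 98.3%. The first base was T in 53.6% and the second C in 79.5% of these sites, whereas the last positions had no base in more than 34.5% of them.

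The deposited values are RPM, reads scaled to the size of their library, with the libraries of a day pooled into a single value that is the authors' mean. Because reads are whole, every pooled value of ESRRB and input at these days could be split into the reads of its 2 libraries, which are called the deeper and the shallower library here since the split does not tell which replicate number they carry. The depths so obtained were 20924473 and 8374945 reads for ESRRB at day 1, 19144421 and 17573945 reads at day 2, and 19230729 and 16794789 reads at day 4. A typical region held 5 to 10 reads in an ESRRB library, so that single regions of low signal were measured with large counting error. The methods of the study describe the replicates of most conditions as independent chromatin preparations, without saying whether they came from separate cultures. The p-values rest on the spread between these preparations, but not on that of each region alone. For day 4 against day 1, the limma fit used below took only the spread shared by regions of similar mean signal. A standard error (SE) given for a region is therefore that shared value. Across regions, Spearman's rho between the 2 libraries of a day was 0.797 at day 1, 0.789 at day 2 and 0.690 at day 4.

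ESRRB signal fell over the GATA6 regions as a whole. The pooled values had a median of 0.549 RPM at day 1, 0.467 RPM at day 2 and 0.398 RPM at day 4, while the median of input was 0.423 RPM at day 1 and 0.452 RPM at day 4. GATA6 regions held 3.53% and 4.92% of all reads in the day 1 libraries, 2.77% and 3.70% in those of day 2, and 2.12% and 2.18% in those of day 4. Input libraries had 2.38% and 2.66% of their reads there at day 1 and 2.36% and 2.78% at day 4. The share of ESRRB reads in GATA6 regions was thus above that of both input libraries at day 1 and below that of both at day 4, and the shallower library was the more enriched at day 1 and day 2.

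Expressed as log2(RPM + pseudocount), with a pseudocount of 0.164 RPM for ESRRB, the median change from day 1 to day 4 was -0.37 over all regions. Between single libraries of day 1 and day 4 it lay between -0.53 and -0.24, and input changed by 0.09. A fall of at least 2-fold on this scale was seen in 8784 regions, or 20.7% of all, and a rise of that size in 236 (0.557%). The same limits were passed by 1.25% (lower) and 2.62% (higher) of regions in input.

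**Figure D1:**
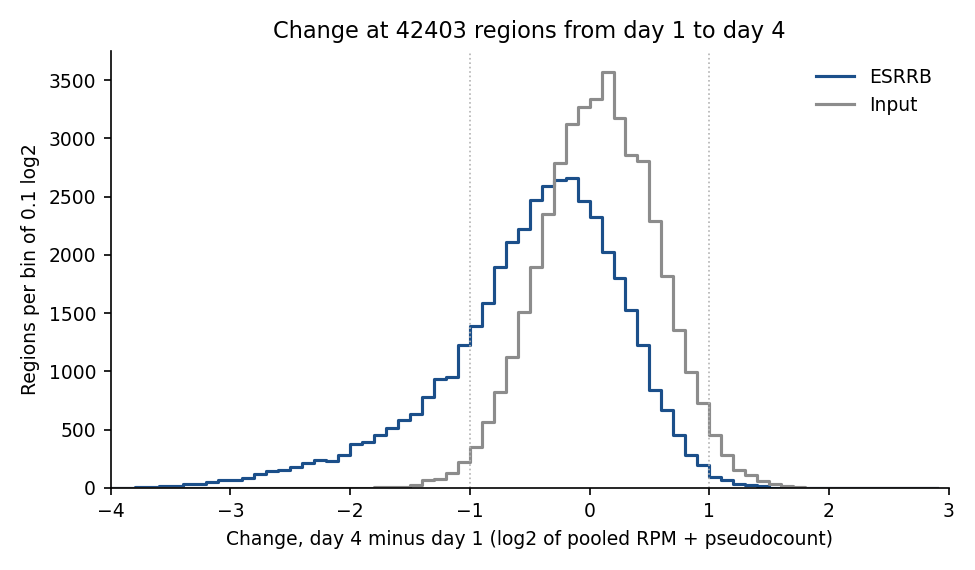
Number of regions (y axis) by their change from day 1 to day 4 on the log2(RPM + pseudocount) scale (x axis), for ESRRB in blue and input in grey over all 42403 regions. The dotted lines mark a 2-fold change, and the ESRRB distribution has its median at -0.37 and a long tail of falls while input is centred at 0.09.

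Limma, run on the log2 values of the 4 solved libraries with Benjamini-Hochberg adjustment, called 7302 regions (17.2%) lower and 138 (0.325%) higher at day 4 than at day 1. Called regions are those with an adjusted p under 0.05. The lower calls had a median of 2.01 RPM at day 1 and 0.509 RPM at day 4, beside 0.736 and 0.622 RPM of input. Both day 4 libraries lay below both day 1 libraries in 19124 regions, 45.1% of all, against 15.8% in input. With a library left out, 4685 regions were called lower without the shallower day 1 library, 10333 without the deeper one, and 0 without either library of day 4, where 4274 (deeper library left out) or 4770 (shallower) were lower at an unadjusted p under 0.05. Each of these fits left a single library in a day. Limma put full weight on the spread shared over regions without a day 1 library, and little without a day 4 library. The counts therefore cannot show on which day the calls rest. ESRRB fell more than input in 3093 regions (7.29%) and rose more than input in 9 (0.0212%) in a limma fit to the 8 libraries of both. In input itself limma called 0 regions (0%), with 1359 lower and 2615 higher at an unadjusted p under 0.05. A lower ESRRB signal in a culture can mean, among other things, fewer cells with bound ESRRB or less ESRRB bound per cell. These cannot be told apart here, and whether the antibody pulled down equally well on each day was not tested.

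The number of regions with more ESRRB than input of the same day shrank with time. At day 1 limma called ESRRB above input in 4851 regions (11.4%), at day 2 in 3023 (7.13%) and at day 4 in 1 (0.00236%), with 411 regions above input at day 4 at an unadjusted p under 0.05. Of the 4851 regions, 2462 (50.8%) were also called above input at day 2. Their median ESRRB signal was 2.13 RPM at day 1, 1.40 RPM at day 2 and 0.513 RPM at day 4, and their median input was 0.492 RPM at day 1 and 0.509 RPM at day 4. Since these regions were chosen on the day 1 libraries, their fall from day 1 is a description. Between day 2 and day 4, which played no part in the choice, 2627 of them (54.2%) were called lower, against 8.62% of all regions.

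**Figure D2:**
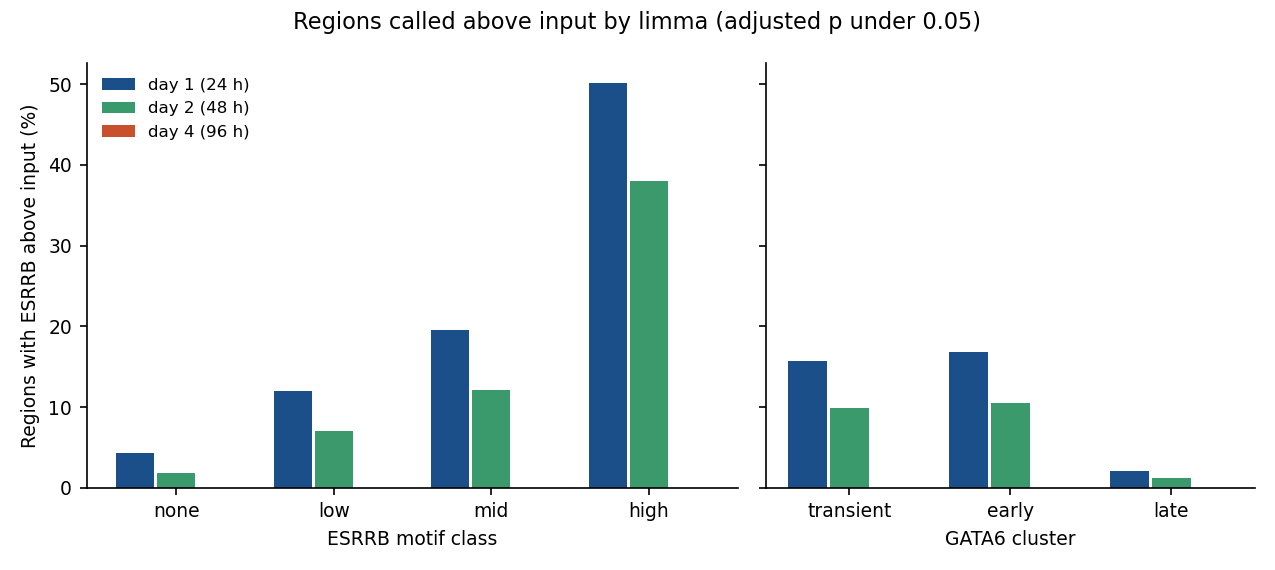
Share of regions with ESRRB above input by limma (y axis, percent) at day 1, day 2 and day 4, by the class of the best ESRRB motif match (left) and by GATA6 cluster (right). Bars for day 4 are at or near 0 in all classes, and the class with high-scoring matches falls from 50.1% at day 1 to 38.0% at day 2.

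The size of the fall followed how much ESRRB a region held earlier. When regions were sorted into deciles by their mean ESRRB signal before Dox, at 8 h and at 16 h, none of which enters the comparison, the median change from day 1 to day 4 ran from -0.02 in the lowest decile through -0.22 in the fifth and -0.68 in the eighth to -1.79 in the highest. The highest decile had a median of 3.27 RPM at day 1, 2.18 RPM at day 2 and 0.859 RPM at day 4, with 1.14 RPM of input at day 1 and 0.961 RPM at day 4. In single libraries the medians of this decile did not overlap between day 1 and day 4, and library pairs gave changes of -2.12 to -1.39. Limma called 3491 of its 4241 regions (82.3%) lower and 1 higher, against 16 lower and 13 higher in the lowest decile. The 425 regions of the top 1% held a median of 9.26 RPM at day 1, 6.02 RPM at day 2 and 1.37 RPM at day 4, and 422 of them were called lower.

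**Figure D3:**
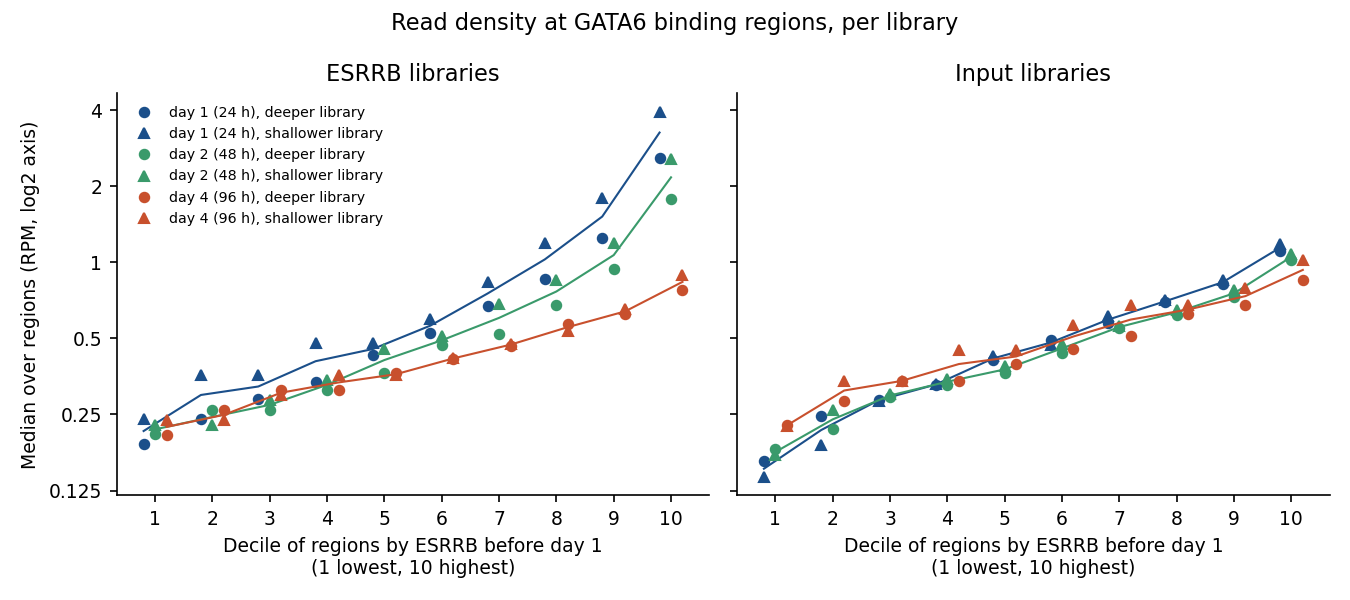
Median RPM (y axis, log2 scale) by decile of regions sorted by ESRRB before day 1 (x axis), for the ESRRB libraries (left) and the input libraries (right), with circles for the deeper and triangles for the shallower library of a day and lines through their mean. In the highest decile the ESRRB libraries of day 4 lie near the input libraries, whereas those of day 1 lie above them.

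The order of the regions by ESRRB moved away from that before Dox. Across all regions, Spearman's rho of ESRRB with its own signal before Dox was 0.887 at day 1, 0.841 at day 2 and 0.642 at day 4. Its rho with input of the same day was 0.740, 0.796 and 0.793. ESRRB at day 4 and GATA6 at day 4 had a rho of 0.708, and input at day 4 had a rho of 0.710 with GATA6. These are descriptions across regions, which share libraries and differ in width.

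Regions with a better ESRRB motif match lost more ESRRB. The median change was -1.39 where the best match had a high score (3677 regions), -0.63 with a mid score (5857), -0.47 with a low score (5855) and -0.25 in the 27014 regions without a match. The class with a high score went from a median of 1.73 RPM at day 1 through 1.18 RPM to 0.539 RPM at day 4, at which it was close to the mid class with 0.498 RPM and the low class with 0.472 RPM. In this class 60.3% of regions were called lower by limma, against 28.3% of the mid class, 20.3% of the low class and 8.28% of regions without a match. With the number of matches the change went from -0.57 for 1 match over -1.00 for 2 to -1.56 for 3 or more, although the width of regions rose alongside, from a median of 592 bp to 1099 bp. Input changed by -0.03 in the class with a high score.

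The word AAGGTCA, which is the half-site with the A before it, was searched on both strands. It was present in 16.5% of all regions, in 54.7% of the highest decile of earlier ESRRB signal and in 45.2% of the regions called lower. Regions with it had a median change of -1.04 and those without it of -0.29. The extended word TCAAGGTCA, which contains the half-site, occurred in 2.94% of all regions. Its carriers changed by -1.66, from 2.25 RPM to 0.580 RPM, and 71.2% of them were called lower. Other bases in front of the half-site went with smaller falls, of -1.53 for GCAAGGTCA, -1.49 for CCAAGGTCA, -1.31 for ACAAGGTCA and -1.27 for TGAAGGTCA. The word TCAAGGCCA, in which the half-site is altered, was carried by 2.90% of regions and had a median change of -0.62. Within the highest decile the change was -2.09 with a high-scoring match and -1.48 without any, and 91.7% and 71.0% of these regions were called lower. The former also held more ESRRB before day 1, with a median of 5.20 RPM against 3.68 RPM, so motif and earlier signal were not separated by this split.

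The classes that describe the regions by other factors and by chromatin differed as well. In regions classed by the authors as bound by PTFs before Dox (8841 regions), ESRRB changed by -1.00 and 43.4% of regions were called lower. The labels do not say whether a peak of a single factor was enough. In the class without PTF peaks, 723 regions were in the highest decile of earlier ESRRB, against 3026 of the class bound before Dox. Regions with ectopic PTF peaks, gained during differentiation (7038), had a change of -0.35 with 14.6% called lower, and regions without PTF peaks (26524) a change of -0.22 with 9.19%. The ectopic class was built by the authors from peaks of the time course that include the days compared, so its change is a description. By histone marks of undifferentiated ES cells, active enhancers changed most with -1.05, poised and primed enhancers by -0.49 and -0.52, promoters by -0.66, and regions without marks (naive) by -0.12. Regions accessible before Dox changed by -0.94, moderately accessible ones by -0.71 and closed ones by -0.17, while input in the same classes changed by -0.26, -0.10 and 0.21.

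GATA6 regions fall into clusters by when GATA6 is bound: early, late, or transient, the last being regions that GATA6 leaves again. ESRRB changed by -0.66 in transient regions and by -0.52 in early ones, in which 26.6% and 22.6% were called lower. Late regions held little ESRRB at any time, with medians of 0.346 RPM at day 1, 0.325 RPM at day 2 and 0.346 RPM at day 4, and a median change of -0.00 with 2.02% called lower. Among regions of the highest decile of earlier ESRRB signal, those of the transient cluster (2180) changed by -1.94, those of the early cluster (1989) by -1.60 and the 72 late regions by -1.56. Transient regions also had the lower input at day 4 there, 0.707 RPM against 1.38 RPM in early regions. Binding of SOX17, a GATA6-induced PrE factor, divided the regions into classes with nearly the same share of lower calls, 17.6% with SOX17 and 16.9% without. The classes held unlike ESRRB at day 1, with medians of 0.693 RPM and 0.466 RPM. Within the highest decile the shares were 77.0% with SOX17 and 89.9% without, at changes of -1.67 and -1.93.

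OCT4 and SOX2 had other changes than ESRRB in part of the classes. From day 1 to day 4 the median change over all regions was -0.20 for OCT4 and -0.01 for SOX2, on their own scales with pseudocounts of 0.178 and 0.196 RPM. OCT4 was lower by at least 2-fold in 21.4% and higher in 9.02% of regions, and SOX2 was lower in 18.7% and higher in 17.0%, while rises of ESRRB were limited to the 0.557% given above. In late regions OCT4 and SOX2 changed by 0.52 and 0.78, beside -0.00 for ESRRB. In regions with PTF peaks before Dox they changed by -1.11 and -1.13, beside -1.00 for ESRRB. In the class of high ESRRB motif score the order was the other way round, with -0.62 for OCT4, -0.51 for SOX2 and -1.39 for ESRRB. SOX2 at day 4 was pooled from 3 labelled libraries, and the spread between libraries of OCT4 and SOX2 was not used here, so these differences between factors carry no test.

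**Figure D4:**
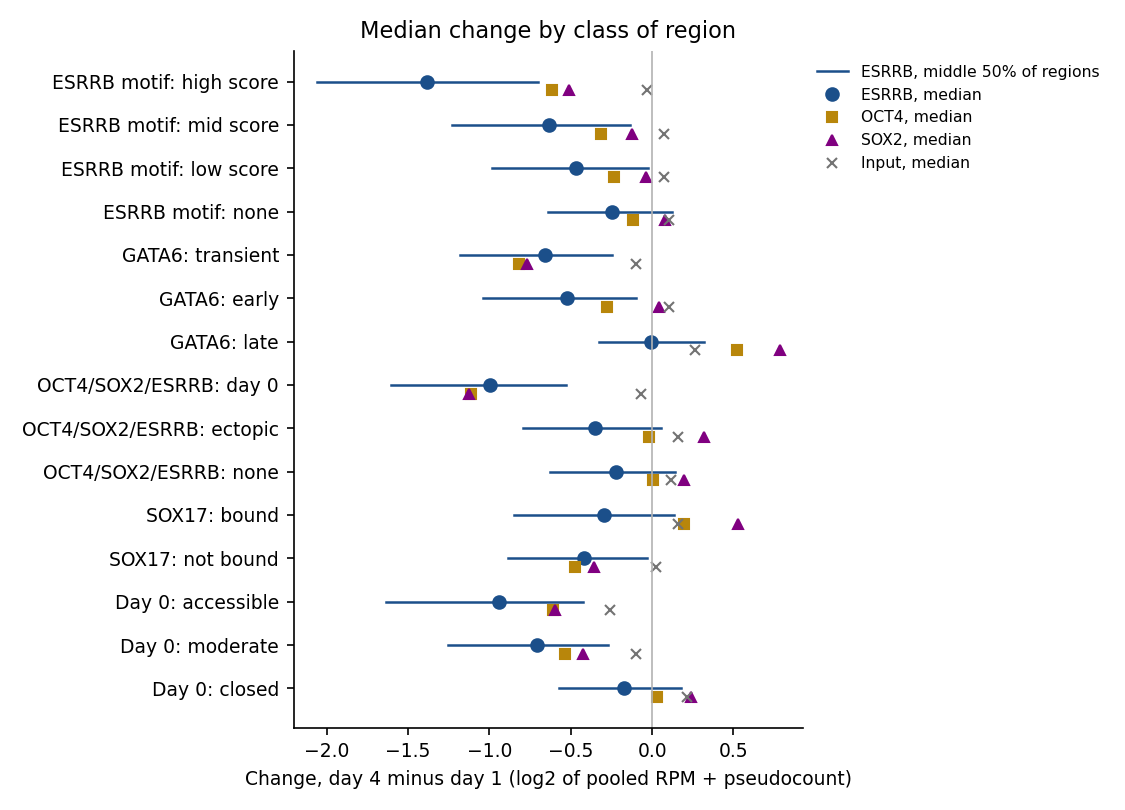
Median change from day 1 to day 4 on the log2(RPM + pseudocount) scale (x axis) by class of region (y axis), for ESRRB (blue circles, with a line over the middle 50% of regions), OCT4 (squares), SOX2 (triangles) and input (crosses). In late GATA6 regions ESRRB stays at -0.00 while OCT4 and SOX2 lie at 0.52 and 0.78, and in regions with a high ESRRB motif score ESRRB lies lowest.

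In regions with much ESRRB the change was larger from day 2 to day 4, a step of 48 h, than from day 1 to day 2, a step of 24 h. Over all regions, between day 1 and day 2 the median change was -0.22, with 3.85% of regions lower and 0.328% higher by at least 2-fold, and between day 2 and day 4 it was -0.18, with 10.8% lower and 0.481% higher. In the highest decile of earlier signal the steps were -0.56 and -1.19, and in the top 1% they were -0.58 and -2.02. Limma called 7 regions lower (0.0165%) and 2 higher (0.00472%) at day 2 against day 1, when 2560 were lower and 358 higher at an unadjusted p under 0.05. At day 4 against day 2 it called 3654 lower (8.62%) and 90 higher (0.212%), and 2187 regions (51.6%) of the highest decile were among the lower ones. Whether the later step was larger than the earlier one was not tested, since both share the day 2 libraries.

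A few regions were called lower already at day 2, and their small number does not mean that other regions kept their signal. The median SE was 0.444 for day 2 against day 1 and 0.393 for day 4 against day 2. At Capn2, a region of high signal described below, these SEs were 0.882 and 0.505. With each library centred on the reference regions (closed, without PTF peak or ESRRB motif), 1 of the 7 lower calls was left, that of Ifi27 (adjusted p = 0.00067 by limma), and neither higher call. A region 638 bp upstream of Ifi27, an interferon-induced gene (chr12:103433340-103433799), held 4.30 and 8.12 RPM in the deeper and the shallower library of day 1, 0.418 and 0.512 RPM at day 2 and 0.312 and 0.357 RPM at day 4. The day 2 libraries were at the level of day 4, and the limma change to day 2 was -3.28 (adjusted p = 1.3e-07). A region 45.9 kb upstream of Wnt11, which encodes a Wnt ligand, went from 2.68 and 4.42 RPM to 0.731 and 0.683 RPM at day 2 (log2 change -2.05, adjusted p = 0.045 by limma). At Gm11172 the values were 3.73 and 4.54 RPM at day 1 and 0.784 and 0.683 RPM at day 2. Regions in introns of Tmem132c and Dock2 were called too, while in those of Esrra and Id2 the day 1 value came from the shallower library alone. Both regions called higher, near Nr5a2 and Pgk1, rested on the deeper library of day 2 alone.

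Genes of the pluripotency network were each represented by the region of highest ESRRB signal before Dox among regions whose nearest protein-coding gene start, within 50 kb, was theirs. Of 29 genes listed, 28 had such a region, and in 23 of them ESRRB was called lower, in 0 higher and in 5 it was not called. Lower calls made up 17.2% of all regions and 82.3% of the highest decile of earlier ESRRB. Their median change was -1.96, beside -0.37 over all regions and -1.79 in the highest decile of earlier ESRRB, and these representatives were themselves chosen for high ESRRB before Dox. Over all 162 regions of the 28 genes, 66 (40.7%) were called lower and 0 higher, with a median change of -0.90. The median signal of the representatives was 4.66 RPM at day 1, 3.22 RPM at day 2 and 1.02 RPM at day 4, with 1.19 RPM of input at day 4. Both day 4 libraries were below both day 1 libraries in 26 of the 28, and beyond the change of input 12 were called lower. The list was drawn up with results of these data known.

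The transcription factors of the network showed falls of several-fold. At Pou5f1, which encodes OCT4, a region 17.6 kb upstream (chr17:35487699-35489238) held 9.08 and 10.6 RPM at day 1, 6.22 and 7.85 RPM at day 2 and 1.30 and 1.43 RPM at day 4. Input there was 1.42 and 2.15 RPM at day 4, so that the ESRRB libraries were no higher than input by then. The limma change from day 1 to day 4 was -2.71 ± 0.43 (SE, 2 libraries a day, adjusted p = 1.6e-08). The region of Sox2 (chr3:34668498-34668833), 18.2 kb downstream of the start, had 1.62 and 4.54 RPM at day 1, 0.888 and 2.39 RPM at day 2 and 0.208 and 0.536 RPM at day 4. At Nanog, 4.86 kb upstream, the values were 2.63 and 6.93 RPM at day 1, 2.35 and 4.04 RPM at day 2 and 0.936 and 0.893 RPM at day 4. In both genes the libraries of day 1 stood far apart, the shallower one being higher, yet the day 4 libraries lay below both.

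Klf5 and Tfcp2l1, which encode factors of the naive network, held ESRRB well into day 2. The Klf5 region (chr14:99330342-99332644), 33.0 kb downstream of the gene start, had 14.6 and 12.8 RPM at day 1, 9.14 and 20.2 RPM at day 2 and 1.82 and 2.56 RPM at day 4. Its day 2 libraries lay on either side of those of day 1, and the limma change was -0.00 to day 2 and -2.57 to day 4 (adjusted p = 2.2e-07). An intronic region of Tfcp2l1 went from 11.3 and 18.1 RPM over 8.93 and 13.5 RPM to 2.34 and 2.26 RPM, within the 2.04 to 2.94 RPM of input at day 4. At Klf2, 15.4 kb downstream, ESRRB fell from 3.73 and 8.00 RPM to 1.51 and 1.55 RPM, beside 0.679 and 0.678 RPM of input at day 4.

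Falls were also found at genes that mark undifferentiated cells. Upstream of Mycn, a MYC family gene (chr12:12943032-12944457), the signal was 10.5 and 11.8 RPM at day 1, 4.13 and 6.43 RPM at day 2 and 0.572 and 1.25 RPM at day 4. The change of -3.47 ± 0.42 (SE, adjusted p = 1.7e-13 by limma) was the largest of the list. At Jam2, a junctional adhesion molecule gene (chr16:84769090-84770612), the libraries gave 8.55 and 18.1 RPM at day 1, 5.38 and 9.16 RPM at day 2 and 0.728 and 1.37 RPM at day 4. The region of Zfp42, the gene of REX1, went from 3.87 and 8.60 RPM to 0.312 and 0.774 RPM, by way of 3.87 and 5.01 RPM at day 2. Upstream of Fbxo15, an F-box gene used as a reporter of ES cells, 13.4 and 19.0 RPM at day 1 became 1.77 and 2.08 RPM at day 4. At Tdgf1, the gene of the Nodal co-receptor CRIPTO, 6.40 and 10.5 RPM became 1.25 and 1.43 RPM.

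Signalling and chromatin genes of the network fell too. At Socs3, which encodes an inhibitor of JAK-STAT signalling, ESRRB went from 7.07 and 11.5 RPM at day 1 over 4.54 and 5.86 RPM to 2.18 and 2.26 RPM at day 4, when input held 2.60 and 4.07 RPM. In an intron of Tet2, a methylcytosine dioxygenase gene, 3.78 and 6.81 RPM became 0.676 and 1.37 RPM. The region of the T-box factor gene Tbx3 had 2.87 and 6.09 RPM at day 1 and was at 1.36 and 2.90 RPM by day 2, before it reached 0.936 and 1.07 RPM. At Sall4, which encodes a zinc finger factor, 5.02 and 9.79 RPM became 2.03 and 2.26 RPM, again no higher than input at 2.26 and 3.50 RPM. In these regions both day 4 libraries lay below both day 1 libraries. The smallest called fall of the list was that of Lefty1, the gene of a Nodal inhibitor, with a change of -1.20 from 1.91 and 2.75 RPM to 1.14 and 0.715 RPM (adjusted p = 0.025 by limma). There input went from 1.76 and 2.97 RPM to 1.19 and 1.81 RPM, and beyond input the change was -0.61 (adjusted p = 0.60).

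Not all regions of the network changed. Upstream of Klf4 (chr4:55532374-55533647), ESRRB was 1.34 and 2.63 RPM at day 1 and 1.66 and 1.37 RPM at day 4, and below both input libraries of day 4 (2.09 and 2.71 RPM). The promoter region of Stat3, the transducer of LIF signals, held 0.573 and 1.43 RPM at day 1 and 1.09 and 0.953 RPM at day 4. In these regions day 1 and day 4 overlapped, and at day 1 the shallower input library exceeded both ESRRB libraries. The other uncalled regions were those of Dppa3, Lin28a and Esrrb itself. In an intron of Esrrb (chr12:86394997-86395779) the signal was 1.24 and 1.31 RPM at day 1 and 0.468 and 0.595 RPM at day 4, a change of -1.06 (adjusted p = 0.063 by limma), while input went from 1.43 and 1.37 RPM to 0.510 and 0.565 RPM. Beyond input the change was 0.10 (adjusted p = 0.96 by limma).

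Genes of PrE had regions that lost ESRRB and regions that did not. Of 28 genes listed, 27 had a region, and 11 were called lower, 1 higher and 15 not called, with a median change of -0.85, for representatives chosen in the same way. The 1 higher was the Gata6 region over coding exon sequence described at the end. Among the 26 representatives outside coding exons, 11 were called lower and 0 higher. Over all 183 regions of these genes 21 were called lower (11.5%, below the 17.2% of all regions) and 5 higher, and the median change was -0.14. The 5 include that Gata6 region and another over a coding exon of Gata6 (change 1.41, adjusted p = 0.0061 by limma). Among the representatives, both day 4 libraries were below both day 1 libraries in 22, and 7 were called lower beyond input. The median signal went from 3.16 RPM at day 1 over 2.50 RPM at day 2 to 1.34 RPM at day 4, where input had 1.58 RPM.

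**Figure D5:**
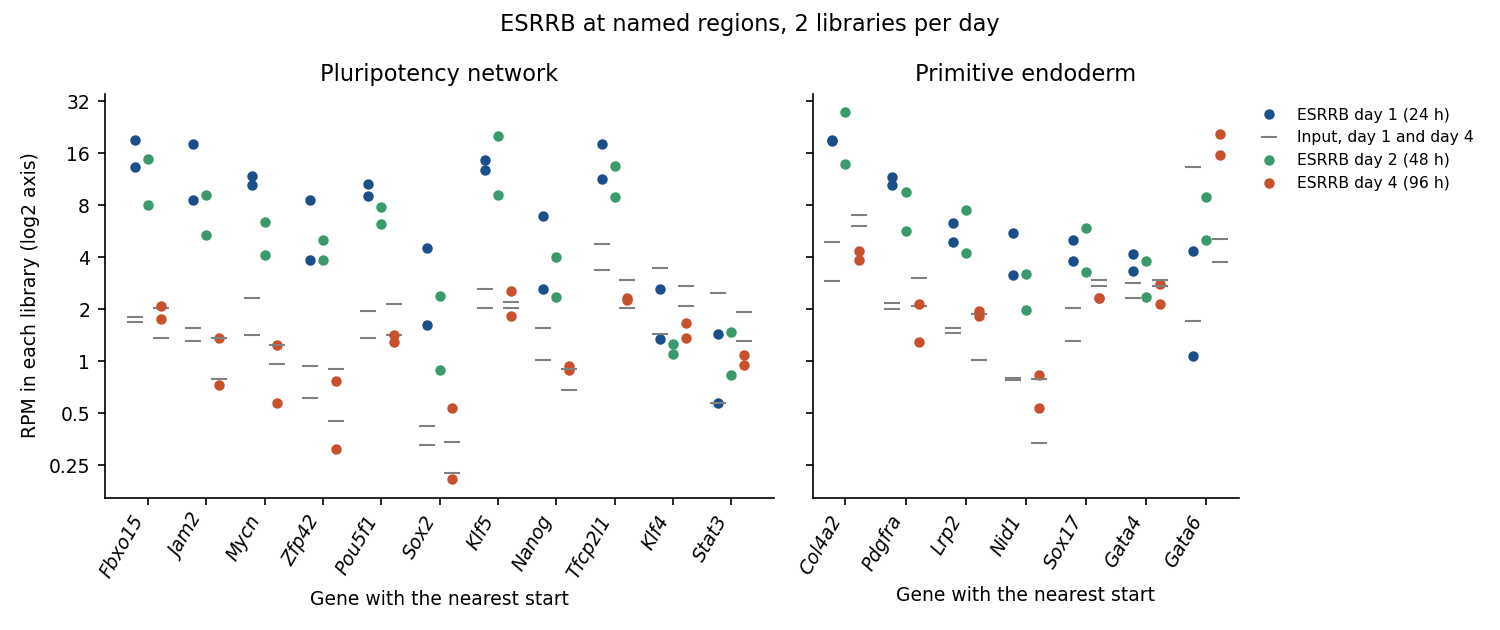
ESRRB in each library (points, RPM on a log2 axis) at day 1, day 2 and day 4 for the representative regions of named genes (x axis), with input of day 1 and day 4 as grey dashes. At most genes the day 4 points lie at the input dashes and below all day 1 points, Klf4 and Stat3 overlap between days, and at Gata6 the day 4 points lie highest.

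Receptor and basement membrane genes of PrE were among those that fell. Upstream of Pdgfra, the receptor gene used as a PrE marker (chr5:75136822-75138629), ESRRB was 10.4 and 11.6 RPM at day 1, 5.69 and 9.50 RPM at day 2 and 1.30 and 2.14 RPM at day 4. The ESRRB libraries of day 4 overlapped with input at 2.09 and 3.05 RPM, and the change was -2.60 ± 0.43 (SE, adjusted p = 8.5e-08 by limma). The region of Col4a2, a collagen IV chain (chr8:11308478-11310403), held 18.9 and 19.0 RPM at day 1, 13.8 and 27.8 RPM at day 2 and 3.85 and 4.35 RPM at day 4, with 6.06 and 7.00 RPM of input at day 4. It thus kept its signal to day 2 and then fell below input. At Nid1, the gene of nidogen-1 in the same membrane, 3.15 and 5.49 RPM became 0.832 and 0.536 RPM. The laminin gene Lamc1 went from 5.93 and 11.9 RPM to 1.98 and 3.10 RPM, and the endocytic receptor gene Lrp2 from 4.92 and 6.33 RPM over 4.23 and 7.51 RPM to 1.82 and 1.96 RPM.

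Genes of related products differed in their calls. The region of Amn, which encodes the membrane anchor of cubilin, went from 3.97 and 5.61 RPM to 1.04 and 0.834 RPM and was called lower (adjusted p = 5.9e-06 by limma). At Cubn, the gene of cubilin itself, ESRRB was 3.97 and 5.01 RPM at day 1, 3.76 and 6.15 RPM at day 2 and 2.76 and 2.80 RPM at day 4, with 3.57 and 2.26 RPM of input at day 4, and it was not called (adjusted p = 0.33). Nid2, the second nidogen gene, fell from 5.07 and 4.54 RPM to 1.40 and 1.37 RPM. The regions of the laminin genes Lama1 and Lamb1 were not called, with changes of -0.63 and -0.48, and neither was that of Col4a1, with 1.96 and 1.19 RPM at day 1 and 1.25 and 1.43 RPM at day 4. A difference in call between these regions is not a tested difference between them.

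Regions of the PrE transcription factors had smaller changes, with the exception of Gata6 described at the end. At Sox17 (chr1:4536608-4538990), 40.3 kb upstream, ESRRB was 3.82 and 5.01 RPM at day 1, 3.29 and 5.92 RPM at day 2 and 2.34 and 2.32 RPM at day 4, and the change of -0.87 had an adjusted p of 0.16 by limma. Input rose there from 2.05 and 1.32 RPM to 2.94 and 2.71 RPM, and beyond input the change was -1.59 (adjusted p = 0.042 by limma). The intronic region of Gata4 held 3.35 and 4.18 RPM at day 1 and 2.81 and 2.14 RPM at day 4, near its input of 2.72 and 2.94 RPM. At the Hnf4a start the values were 0.908 and 0.478 RPM at day 1 and 0.728 and 1.13 RPM at day 4, at or below the input of 0.793 to 1.93 RPM on these days. The region of Sox7 was called lower, from 1.67 and 3.82 RPM to 0.884 and 0.834 RPM, but its input went from 2.37 and 2.12 RPM to 0.849 and 1.47 RPM, and beyond input the change was -0.50 (adjusted p = 0.69 by limma).

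Genes of energy metabolism, a known set of targets of estrogen-related receptors, were the third list. Of 15 genes, 11 had a region, with 5 called lower, 0 higher and 6 not called at a median change of -1.06, and both day 4 libraries were below both day 1 libraries in 8. Over all 22 regions of these genes 8 were called lower, or 36.4% against 17.2% of all regions, with a median change of -0.82. The citrate synthase gene Cs had 2.44 and 5.01 RPM at day 1 and 0.676 and 1.19 RPM at day 4, and Pdk4, a kinase that inhibits pyruvate dehydrogenase, 1.53 and 3.34 RPM and then 0.156 and 0.298 RPM. In both regions the day 4 libraries lay below those of day 1. The region of Esrra, which encodes a related receptor, counted among the lower calls but held 15.9 RPM in the shallower and 1.19 RPM in the deeper day 1 library. Without the shallower library its change was -1.27 (adjusted p = 0.039 by limma) in place of -3.05. This region lies over a coding exon, and the source of its reads was not tested. Without it, 4 of 10 regions were called lower.

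The 10 largest falls among regions of high mean signal (highest decile of the mean of day 1 and day 4) are given as a description, with no test, since they were ranked by this change. An intronic region of Capn2, a calpain protease gene (chr1:182500866-182501246), led them with 25.1 and 24.7 RPM at day 1, 8.98 and 19.0 RPM at day 2 and 0.468 and 1.37 RPM at day 4. A region 149 kb from the start of Tnik and within an intron of Pld1 (chr3:28113844-28114354) went from 22.2 and 18.0 RPM to 0.520 and 1.49 RPM. Both are in constitutive heterochromatin by the histone states, closed before Dox and in the class without PTF peaks. ESRRB nevertheless stood at 32.6 and 30.2 RPM there before Dox. Others were regions 25.2 kb from the start of Brd1, 15.3 kb upstream of Idh2, 111 kb downstream of Sox2, 154 kb downstream of Mycn, and near Sntg1, Cdk18, Kat6b and the Esrra region above. In 9 of the 10 there was a high-scoring motif match, the exception being the region of Kat6b with a low one. The region near Sntg1 held 6.31 and 8.48 RPM at day 1 and 0.0520 and 0.476 RPM at day 4, the former resting on 1 read.

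Rises were few and were of another kind. Of the 138 regions called higher, 110 (79.7%) were late GATA6 regions, 116 (84.1%) SOX17-bound, 126 (91.3%) closed before Dox and 101 (73.2%) without an ESRRB motif match, against 33.6%, 44.5%, 61.3% and 63.7% of all regions. Their ESRRB median was 0.449 RPM before Dox, 0.257 RPM at day 1 and 0.900 RPM at day 4. Their input went from 0.443 RPM at day 1 to 0.763 RPM at day 4, and was higher at day 4 in 116 of them. At day 1 their ESRRB median thus lay below that before Dox and below input, in regions chosen on this comparison. In these regions GATA6 and SOX17 stood at medians of 4.40 and 4.77 RPM at day 4, against 1.29 and 1.10 RPM over all regions. The part of input and of the other factors in these rises was not tested. Of 9 regions called higher beyond input, the largest excess apart from Gata6 was a log2 change of 2.21 near Stard13. There ESRRB went from 0.191 and 0.119 RPM to 0.676 and 0.834 RPM and input from 0.409 and 0.518 RPM to 0.226 and 0.226 RPM. The 0.119 RPM stood for 1 read, the lowest count in its library, so this change rests on few reads.

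The strongest rise, and the single region with ESRRB above input at day 4, was a region over coding exon sequence of Gata6. ESRRB was 4.35 and 1.07 RPM there at day 1, 5.01 and 8.93 RPM at day 2 and 20.6 and 15.5 RPM at day 4, a change of 2.93 ± 0.44 (SE, adjusted p = 3.6e-09 by limma). Input was 1.72 and 13.4 RPM at day 1 and 3.74 and 5.08 RPM at day 4, so that an input library of day 1 came close to the ESRRB libraries of day 4. OCT4 went from 4.62 to 8.53 RPM and SOX2 from 5.29 to 8.90 RPM in the pooled values. Because the cassette carries the Gata6 open reading frame, reads of the cassette and of the gene itself cannot be told apart in coding exons.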

How the data were processed

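ChIP-seq of ESRRB, OCT4, SOX2 and input was analysed in the 6 ESRRB libraries of day 1, day 2 and day 4, the 6 input libraries of these days, and the OCT4 and SOX2 libraries of day 1 and day 4, grouped by the titles of their labels. The authors trimmed reads with cutadapt, aligned them to mm10 with bowtie2, kept a mapping quality above 30, removed duplicates by molecular identifiers and counted reads on each region with bamsignals. The deposited RPM values are reads scaled to the size of a library, averaged by the authors over the libraries of a day. The deposited motif scores come from FIMO with the ESRRB matrix of JASPAR. Versions of cutadapt, bowtie2 and FIMO are not given in the sources used here. Of 105 columns, 14 hold per-sample values of other assays and were not used, and neither was the column with the authors' comparison of Oct4 siRNA.

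Each pooled value was solved for the whole reads of 2 libraries (depths 8374945 to 20924473 reads for ESRRB, 8853884 to 27407610 reads for input), which gave a single solution for 100% of regions. In a simulation 99.955% of 20000 regions were recovered. No library held fewer than 1 read in any region, and subtracting 1 read from each was tried as an alternative. Changes were differences of log2(RPM + pseudocount), with the pseudocount at percentile 5 of a factor's values, which understates changes of low regions. Solved libraries were tested with limma 3.58.1 (R 4.3.3) with a mean-variance trend, with adjusted p-values under 0.05 as calls. Tested on simulated data of 42403 regions, the fit of day 4 against day 1 recovered 12% of falls by 1 on the log2 scale, 69% of falls by 2 and 96% of falls by 3, with 2.58% false calls. The changed regions were all drawn from those of highest mean signal. The simulated libraries had a small set dispersion and equal enrichment, unlike the real libraries of day 1. These rates therefore do not carry over to typical regions or to the real fit. Because limma shared its variance estimate among regions, a region high in 1 library can pass. Depth limits single regions, which held medians of 4 to 11 reads per library.

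Genes are those with the nearest protein-coding start in GENCODE M21 within 50 kb of the GATA6 summit, with the region of highest ESRRB before Dox per gene, plus the 10 largest falls and rises in the top 10% by mean signal. Regions called at day 2 against day 1 or higher beyond input were named after their values were seen. The values of 1 gene in the metabolism list are not reported here. Coordinates are those of the deposited table. The classes, gene lists and comparisons were chosen with earlier results of these data known. The alternatives were other pseudocounts, filters, fold limits, means, input correction, reference regions and leaving out each library. The planned comparison of ESRRB peak calls was not made, and the peaks are not analysed here. Python 3.11.15, numpy 2.4.6, pandas 2.3.3 and matplotlib 3.10.9 were used.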

Additional observations from a re-analysis of the deposited data

How the results depend on the processing

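Under the alternatives set beforehand, the median change of ESRRB from day 1 to day 4 over all regions stayed negative. It was -0.10 with a pseudocount 10 times larger, -0.77 in regions above the median of earlier ESRRB signal and -0.56 with input subtracted, and -0.51 to -0.22 with each library left out. The step from day 2 to day 4 was -0.42 in those regions and -0.33 as a ratio to input. In those regions OCT4 changed by -0.53 and SOX2 by -0.37, and SOX2 by -0.35 relative to reference regions (closed, without PTF peak or ESRRB motif), whose own ESRRB change was -0.08. The share of regions lower by at least 2-fold, 20.7% as reported, was 4.85% with the larger pseudocount, 38.4% in regions above that median, 37.5% with input subtracted, and 37.9% or 4.57% at limits of 1.5-fold or 4-fold. The share higher was 0.00236% with the larger and 2.76% with the smaller pseudocount, 0.283% above that median, 0.986% as a ratio to input, 2.06% with input subtracted, 0.894% relative to reference regions, and 4.56% or 0.00236% at 1.5-fold or 4-fold. Limma called 0.325% of regions higher, 0.368% without a trend, and leaving out a library gave shares of 0.976% to 1.69% by fold. Of 36 class medians under all alternatives, 338 of 427 values moved by less than the spread between libraries and 0 changed sign against a main value beyond that spread. In 11 of 11 settings compared, the highest decile of earlier signal fell most and the motif classes kept their order, while each decile fell more than the one below it in 9 of 11.

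Chosen after seeing the data were the subtraction of 1 read per library, which gave a higher share of 1.93% and 248 higher calls by limma, and centring each library on the reference regions, which gave 226 higher calls, 1 lower and 0 higher at day 2 against day 1 (1678 lower and 1041 higher at an unadjusted p under 0.05), and 51 higher at day 4 against day 2. Beyond input limma called 3093 lower and 9 higher. With each library left out, limma called between 0 and 10333 regions lower and between 0 and 323 higher. It called 0 when either day 4 library was left out. Each of these fits left a single library in a day and a single residual degree of freedom. The weight that limma put on the spread shared over regions was full without a day 1 library and little without a day 4 library. These counts therefore cannot show on which day the calls rest. No paired analysis was possible because the solved libraries carry no replicate number. Reads of 5 to 10 per region and library limit what single regions of low signal can show.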

Other observations

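Several regions had a single ESRRB library far above the other library of the same day, and these regions were noticed after their values were seen. A region over a coding exon of Nr5a2 (chr1:136940442-136941033) held 60.3 RPM, or 1155 reads, in the deeper and 2.05 RPM in the shallower day 2 library, beside 0.547 and 0.346 RPM of input. The pooled values of OCT4 and SOX2 there went from 2.21 and 2.04 RPM at day 1 to 8.70 and 17.5 RPM at day 4. Near Pgk1 (chrX:106203686-106203985) the deeper day 2 library held 17.0 RPM and the shallower 0.455 RPM, and OCT4 and SOX2 stood at 2.08 and 3.83 RPM at day 4 against 0.453 and 0.457 RPM at day 1. The Esrra region, also over a coding exon, held 15.9 RPM in the shallower day 1 library alone, and a region 170 kb upstream of Id2 had 3.82 RPM in that library and 0.287 RPM in the deeper one.

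The region over a coding exon of Nr0b1, the gene of the nuclear receptor DAX1 (chrX:86191555-86193083), showed the largest swing before day 1 among the named regions. Its pooled ESRRB value was 31.6 RPM before Dox, 106 RPM at 8 h and 21.4 RPM at 16 h, and 1.78 RPM at day 1, with input between 0.892 and 1.28 RPM at the first 3 times. It has no ESRRB motif match. As in the coding exon regions of Nr5a2 and Esrra, the source of its reads was not tested, and without it 22 of 27 representative regions of the pluripotency network were called lower. Its fall from day 1 to day 4, from 1.29 and 2.27 RPM to 0.468 and 0.536 RPM, was called by limma (adjusted p = 0.0033), but without the shallower day 1 library the adjusted p was 0.067.

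Input was not the same at both days across classes. Its median change from day 1 to day 4 was 0.38 in regions without histone marks and -0.23 at promoters, beside ESRRB changes of -0.12 and -0.66. The part of input in the ESRRB changes of these classes was not tested beyond the fit that subtracts it.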
